A study of Mus musculus with 18 samples.

Results

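Regions bound by Foxa2-C3 and by Foxa3-N2, and found with none of the other Foxa chimeras tested, are described here. They number 2906 of 24999 regions, or 11.6%, the share that the choice of members itself fixes. The members were chosen from peak calls: overlapping peaks of the 8 Foxa lists (1 bp or more) were merged into regions, and a region was kept when it held a peak of Foxa2-C3 and of Foxa3-N2 and no peak of the other 6 lists. Their number, scores and presence in the lists are therefore descriptions and carry no test.

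The Foxa proteins are a family of forkhead factors active in endoderm and liver. They act as pioneer factors: their winged-helix DNA-binding domain can engage its sites in closed chromatin, and the domains on either side of it take part in activating transcription and in contacts with other proteins and with histones. Together with Hnf4alpha, a nuclear receptor of hepatocytes, a Foxa protein can turn mouse embryonic fibroblasts into induced hepatocyte-like (iHep) cells.

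Chromatin immunoprecipitation sequencing (ChIP-seq) was done in iHep cells made from C57BL/6 fibroblasts of 13.5-day embryos, all infected with Hnf4alpha and 1 Foxa chimera. Foxa2-C3 is Foxa2 carrying the C-terminal domain of Foxa3, and Foxa3-N2 is Foxa3 carrying the N-terminal domain of Foxa2. Both were precipitated with a Foxa2 antibody, both have the N-terminal domain of Foxa2 and the C-terminal domain of Foxa3, and they differ in the DNA-binding domain. The other 6 chimeras were Foxa1-C3 and Foxa3-N1 (Foxa1 antibody; N-terminal domain of Foxa1 and C-terminal domain of Foxa3) and Foxa1-N3, Foxa2-N3, Foxa3-C1 and Foxa3-C2 (Foxa3 antibody; N-terminal domain of Foxa3). A library titled 4a3_DA1, whose labels name an Hnf4alpha antibody, played no part in choosing the members; its title names a Foxa3 construct and its other labels Foxa1 with Hnf4alpha. There was a single ChIP library for every construct and thus no replicate of any value, and the labels do not say whether the infected cells were a pool or a clone. The peak lists carry no expression values, so the identity of the cells could not be checked against markers.

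Foxa2-C3 had 13715 peaks and Foxa3-N2 16543, and these were the longest of the 8 lists; the others held 956 to 7625. The Foxa2 antibody, the Foxa2 N-terminal domain with the Foxa3 C-terminal domain, and the long lists coincide in these libraries and cannot be told apart. Read depth is unknown. The score of a peak is the authors' own, of unstated kind, and served to rank peaks within a list. The exception is an alternative that kept peaks above the pooled median score of 19.2. It takes scores as comparable between lists, which is not known. Score percentiles run from 0 for the weakest peak of a list to 100 for the strongest. Positions are on mm9. The gene table and promoter sequences used here are on GRCm38, so regions were not assigned to genes and no sequence is shown.

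Foxa2-C3 and Foxa3-N2 had more private regions, held by both and by no other list, than any other pair of constructs. The 2906 regions were 55.6% of the 5225 regions found in exactly 2 lists, and the other 27 pairs together held 2319. Foxa3-N1 with Foxa3-N2 came next with 408 regions, followed by Foxa2-C3 with Foxa3-C1 (321) and Foxa1-C3 with Foxa3-N2 (195). In 15 of the 28 pairs the number was under 50. Foxa2-C3 and Foxa3-N2 had 9269 regions in common, of which the members made up 31.4% (95% Wilson interval 30.4 to 32.3%; all intervals here cover counting error only). For the other pairs this share was at most 7.50%, in Foxa3-N1 with Foxa3-N2.

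The same comparison was made for each pair of constructs that differs in the DNA-binding domain alone. Foxa1-C3 and Foxa3-N1, the counterparts of these constructs with the Foxa1 N-terminal domain and the Foxa1 antibody, had 45 private regions among 3174 in common (1.42%; 1.06 to 1.89%). Foxa2-N3 and Foxa3-C2 had 12 among 2385 (0.503%; 0.288 to 0.877%). Foxa1-N3 and Foxa3-C1 had 4 among 863 (0.463%; 0.180 to 1.19%). The list lengths behind these shares differ, so the pairs were also compared with the lists limited in length.

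**Figure D1:**
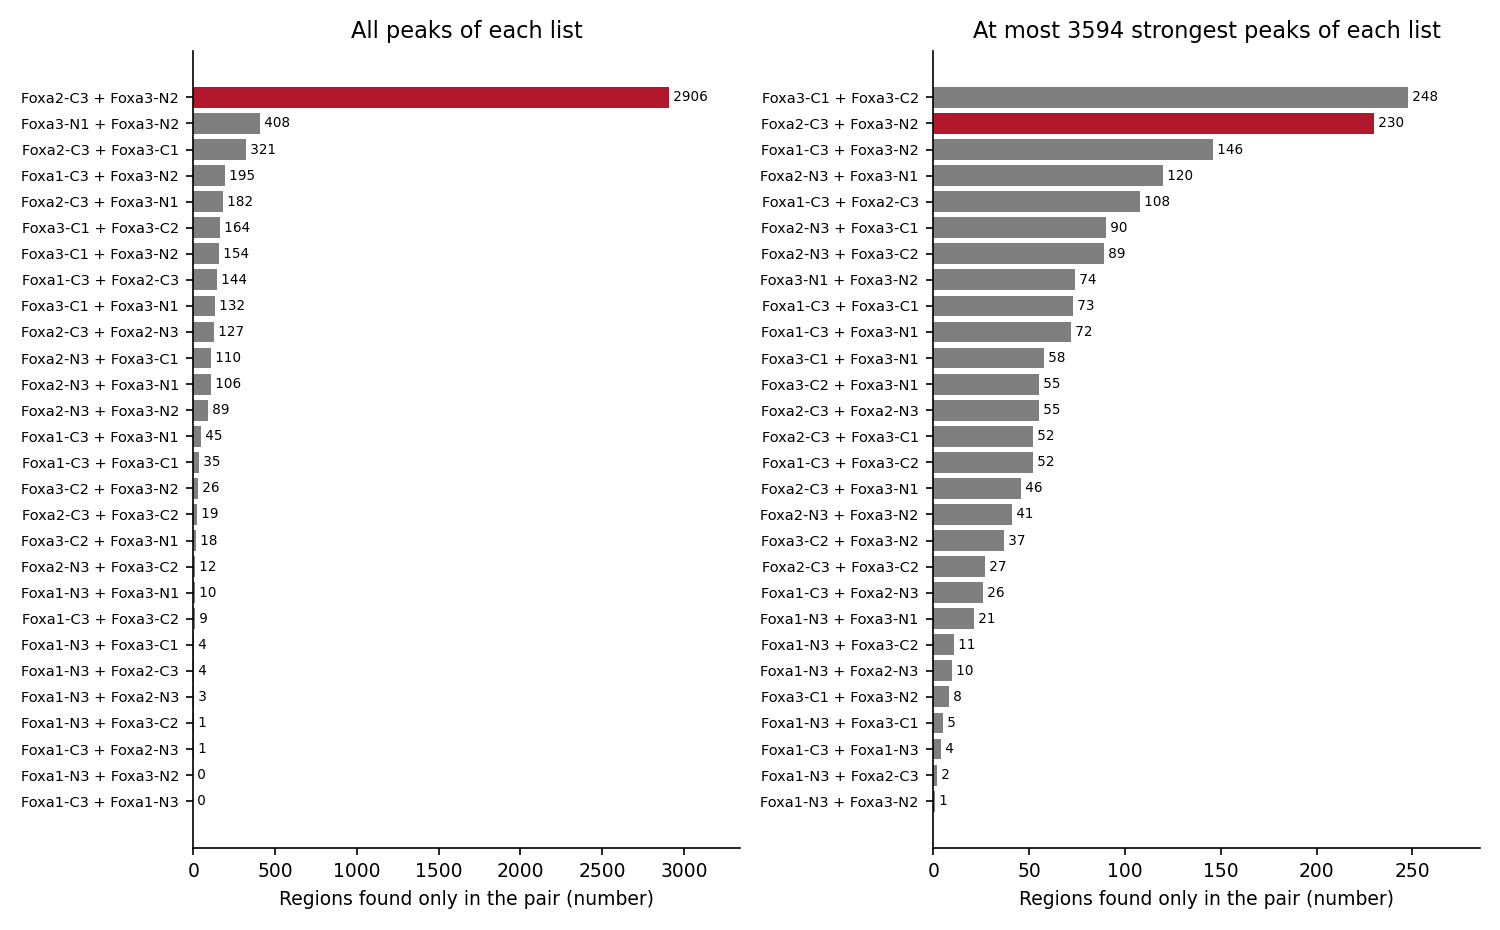
Number of regions found only in a given pair of the 8 Foxa lists, for all 28 pairs; the left panel uses all peaks and the right panel the 3594 strongest peaks of each list (all 956 of Foxa1-N3), and the bar of Foxa2-C3 with Foxa3-N2 is red. With all peaks this pair stands at 2906 against 408 for the next; with lists so limited it has 230 against 248 for Foxa3-C1 with Foxa3-C2.

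With the long lists limited, the lead of the Foxa2-antibody pair narrowed, and with stricter limits it was lost. Limited to 7625 peaks a list, as many as the third longest holds, with the shorter lists left whole, Foxa2-C3 and Foxa3-N2 still ranked first with 722 private regions, and Foxa3-C1 with Foxa3-N1 followed with 252. With the 3594 strongest peaks (all 956 of Foxa1-N3) they had 230, behind the 248 of Foxa3-C1 with Foxa3-C2, which share the Foxa3 antibody. With the 956 strongest peaks they had 64, again behind that pair with 76. At 3594 and 956 peaks, Foxa1-C3 and Foxa3-N1 had 72 and 15 private regions. Foxa2-N3 and Foxa3-C2 had 89 and 17, and Foxa1-N3 and Foxa3-C1 had 5 and 20. As shares of the regions in common at 3594 peaks, these came to 3.76%, 4.39% and 0.664% in that order. Foxa2-C3 and Foxa3-N2 had 10.4%. At 956 peaks the shares were 2.96%, 3.14% and 4.67%, against 11.7%. All 722 regions were members with all peaks as well. This was nearly fixed in advance, since the limit of 7625 peaks left the other 6 lists whole. Of the 230 regions, 100 were members and 130 held a weaker peak of another construct further down its list, and of the 64 regions 62 did. The remaining 2 of the 64 are the regions on chromosomes 6 and 1 described first below.

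The 9269 regions common to Foxa2-C3 and Foxa3-N2 were spread over every number of further constructs, and the members were the largest class. Besides the 2906 members there were 1604 regions in 3 lists, 1232 in 4, 1070 in 5, 906 in 6, 1022 in 7 and 529 in all 8. Among the 1604 regions with 1 further list, that list was Foxa3-N1 in 592 (36.9%), Foxa1-C3 in 391 (24.4%), Foxa3-C1 in 334 (20.8%), Foxa2-N3 in 215 (13.4%), Foxa3-C2 in 71 (4.43%) and Foxa1-N3 in 1. This order is not that of list length, since Foxa1-C3, with 4807 peaks, came ahead of Foxa3-C1 with 7533 and Foxa2-N3 with 5230. As a share of the further list, these regions came to 8.13% of Foxa1-C3 and 7.76% of Foxa3-N1. Both have the Foxa1 antibody, the Foxa1 N-terminal domain and the Foxa3 C-terminal domain. The share was 4.43% of Foxa3-C1, 4.11% of Foxa2-N3, 1.98% of Foxa3-C2 and 0.105% of Foxa1-N3, which have the Foxa3 antibody and the Foxa3 N-terminal domain. Antibody and terminal domains coincide here and cannot be told apart.

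Members were peaks of middle to low strength. In Foxa2-C3 the member peaks had a median score percentile of 38.5, with the central 50% between 20.1 and 57.5, and in Foxa3-N2 a median of 51.1, with the central 50% between 28.9 and 69.5. Peaks of the same lists at regions that further constructs also bound had medians of 72.3 in Foxa2-C3 and 75.2 in Foxa3-N2. Peaks found in 1 list alone lay lowest, with medians of 25.3 in Foxa2-C3 and 29.2 in Foxa3-N2. Member peaks made up 21.2% of the Foxa2-C3 list and 17.6% of the Foxa3-N2 list. Their ranks ran from 703 to 13710 in Foxa2-C3 and from 227 to 16541 in Foxa3-N2, so they reached down to nearly the last peak of each list. In the strongest decile of Foxa2-C3, 20 of 1372 peaks were members (1.46%), and in that of Foxa3-N2 87 of 1654 (5.26%).

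When the common regions were ordered by their mean percentile in both lists, the share that were members fell in every step. In the weakest decile 589 of 927 regions (63.5%; 60.4 to 66.6%) were members, 330 of 927 in decile 5 (35.6%), 111 of 927 in decile 8 (12.0%) and 10 of 927 in the strongest (1.08%; 0.587 to 1.97%). Over the same steps the share also found in Foxa3-N1 was 18.2% in the weakest decile, 41.7% in decile 5 and 95.4% in the strongest. For the short Foxa1-N3 list these shares were 1.29%, 4.85% and 38.4%.

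**Figure D2:**
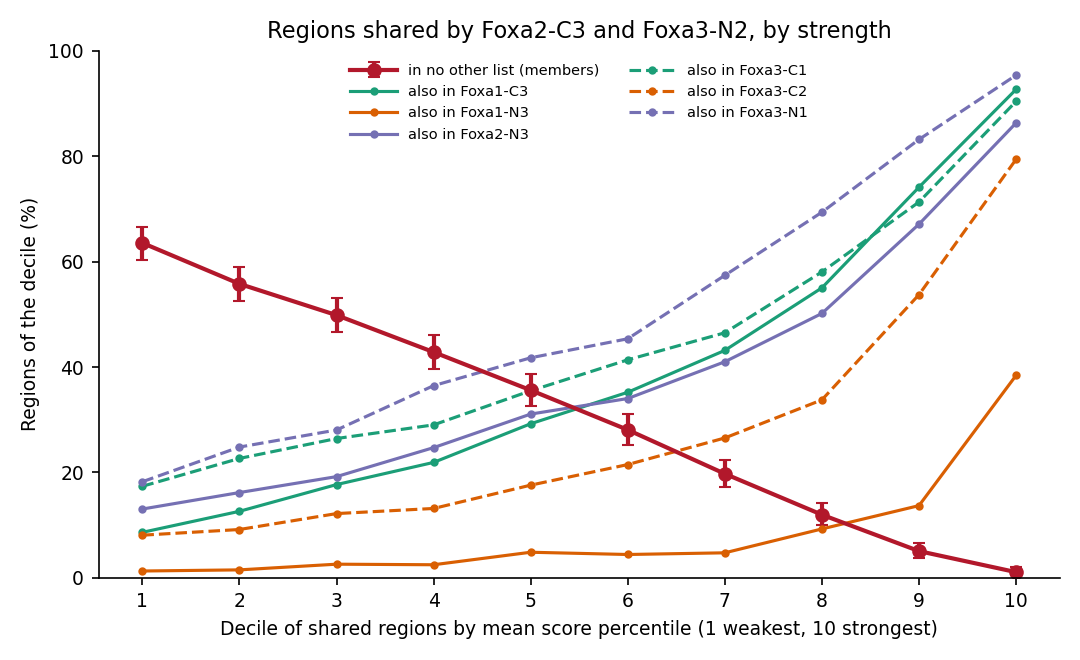
Share (%) of the 9269 regions common to Foxa2-C3 and Foxa3-N2 that no other list held (red, with 95% Wilson intervals) and that each of the other 6 lists also held, by decile of the mean score percentile in both lists. The members make up 63.5% of the weakest decile and 1.08% of the strongest, while every other list holds its largest share in the strongest.

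The strength of a peak also marked how often it was found with the partner construct. Among Foxa2-C3 regions absent from the other 6 lists, 2906 were found in Foxa3-N2 and 2922 were not, so 49.9% (48.6 to 51.1%) had a partner. Among Foxa3-N2 regions absent from the other 6 lists the share was 33.3% (32.3 to 34.2%), with 5833 found in that list alone. By peaks, the share with a partner was 37.0% in the weakest decile of Foxa2-C3, 74.2% in decile 8 and 66.7% in the strongest, which held 20 member peaks and 10 without a partner. In Foxa3-N2 it was 16.5% in the weakest decile, 60.3% in decile 8 and 77.0% in the strongest (87 member peaks and 26 without a partner). The same share, over regions absent from the 6 lists outside the pair, was taken for the other 3 pairs matched in everything but the DNA-binding domain. For those pairs the 6 lists include Foxa2-C3 and Foxa3-N2, with 13715 and 16543 peaks. The 6 lists outside Foxa2-C3 with Foxa3-N2 hold 956 to 7625 peaks. The share was not taken with lists limited in length, so it is not like for like between pairs. It was 16.2% (12.4 to 21.0%) of Foxa1-C3 regions and 4.05% (3.04 to 5.37%) of Foxa3-N1 regions in the pair of these constructs. In Foxa2-N3 with Foxa3-C2 it was 3.32% (1.91 to 5.72%) of Foxa2-N3 regions and 9.92% (5.76 to 16.5%) of Foxa3-C2 regions. In Foxa1-N3 with Foxa3-C1 it was 30.8% of Foxa1-N3 regions, with 4 found in Foxa3-C1 and 9 not, so that its interval (12.7 to 57.6%) takes in the values of both Foxa2-C3 and Foxa3-N2, and 0.293% (0.114 to 0.751%) of Foxa3-C1 regions.

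Both lists did not order the members alike. Across the 2906 members, Spearman's rho between the scores in Foxa2-C3 and in Foxa3-N2 was 0.30, against 0.59 across the 6363 common regions that further constructs bound; the regions of each set come from the same 2 libraries and cover different ranges of score. The percentile was higher in Foxa2-C3 for 1057 members (36.4%) and higher in Foxa3-N2 for 1849 (63.6%; 61.9 to 65.4%). Among the 6363 other common regions it was higher in Foxa3-N2 for 3530 (55.5%; 54.3 to 56.7%). Above the median of both lists lay 675 members (23.2%), against 3952 (62.1%) of the 6363 other common regions, and below it in both lay 1067 members (36.7%). A further 827 members were above the median in Foxa3-N2 alone and 337 in Foxa2-C3 alone.

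**Figure D3:**
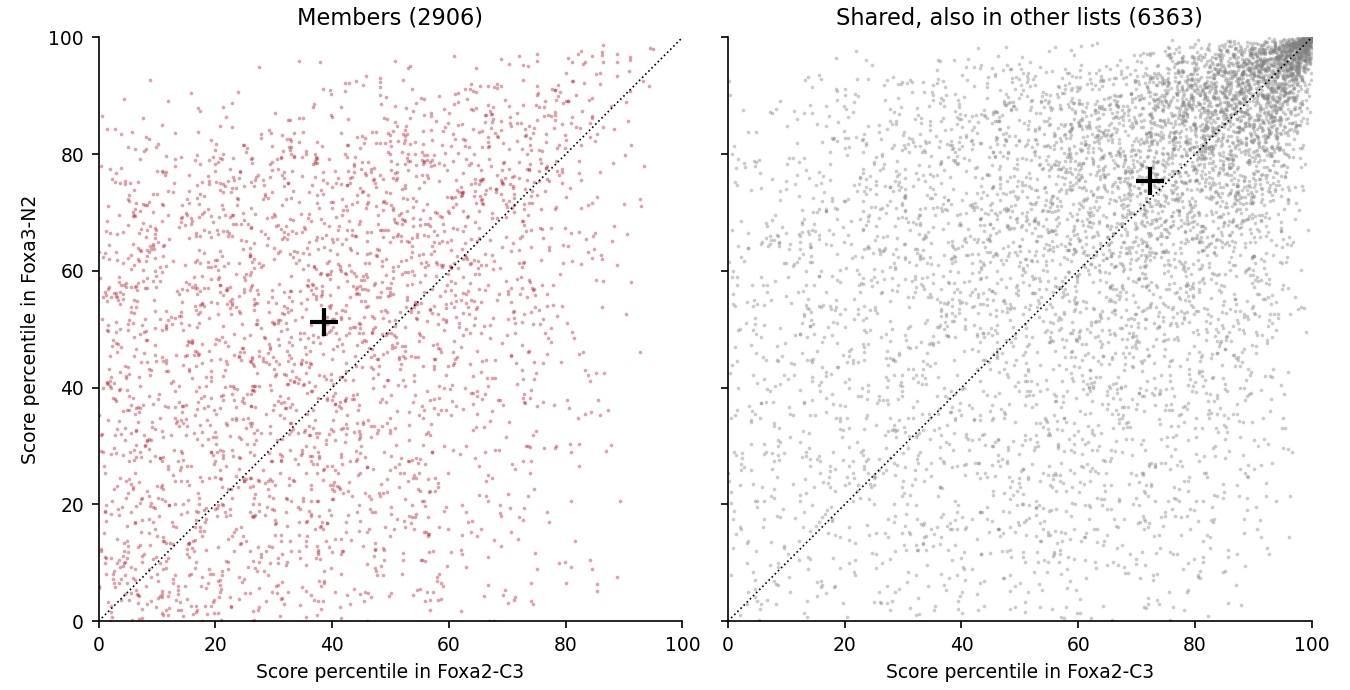
Score percentile in Foxa2-C3 (x axis) and Foxa3-N2 (y axis) of each of the 2906 members (left) and of each of the 6363 common regions that further constructs also bound (right); a cross marks the medians and the dotted line equal percentiles. The members scatter widely around a centre near 38.5 and 51.2, and the other common regions crowd into the upper right corner.

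Few members stood among the strongest peaks of both libraries: 8 lay in the strongest decile of both lists. By the mean rank in both lists, which by its making favours regions strong in both, the first was a region of 584 bp on chromosome 6 (52590218 to 52590801), with a score of 97.2 and rank 703 in Foxa2-C3 and a score of 141.1 and rank 326 in Foxa3-N2. The second, of 603 bp on chromosome 1 (36568306 to 36568908), ranked 771 in Foxa2-C3 and 289 in Foxa3-N2. These were the 2 members that stayed private among the 956 strongest peaks. Even so, 378 common regions that further constructs bound had a better mean rank than the first member, and 13 members were among the best 1000 common regions.

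The next 3 lay on chromosome 9 (41995811 to 41996394; rank 1233 in Foxa2-C3 and 546 in Foxa3-N2), chromosome 6 (72473048 to 72473619; ranks 1225 and 650 in that order) and chromosome 15 (55150799 to 55151352; 1542 and 483). The sixth, again on chromosome 6 (5446348 to 5446940), had the best rank of all members in Foxa3-N2, 227, and ranked 1861 in Foxa2-C3. Regions on chromosome 17 (56218037 to 56218684; 781 in Foxa2-C3 and 1376 in Foxa3-N2) and chromosome 2 (68773569 to 68774214; 935 and 1229) were the 2 of these 10 that ranked better in Foxa2-C3. Regions on chromosome 16 (24826865 to 24827429; 1259 and 959) and chromosome 10 (79447434 to 79448029; 1533 and 706) completed the 10. All 10 were 554 to 648 bp wide, and in each the midpoints of both peaks lay within 20.5 bp of each other.

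The 10 strongest members differed widely in their distance to the peaks of other lists. The nearest peak of any of the other 6 lists lay 1284 to 186336 bp away (median 45003 bp), and 3 of the 10 had one within 10 kb. The closest were those on chromosome 16 (1284 bp) and chromosome 15 (1610 bp), and the farthest was the region on chromosome 17.

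Some members stood high in 1 library and near the median in the other. A region on chromosome 17 (69554635 to 69555164) ranked 1328 in Foxa2-C3 and 7843 in Foxa3-N2, and regions on chromosome 19 (57633554 to 57634067) and chromosome 6 (125526621 to 125527161) ranked 1218 and 1899 in Foxa2-C3 and 6929 and 7660 in Foxa3-N2. In the other direction, a region on chromosome 9 (22961631 to 22962164) ranked 6759 in Foxa2-C3 and 674 in Foxa3-N2. Regions on chromosome 12 (81928400 to 81928921) and chromosome 5 (87232962 to 87233528) ranked 6444 and 6412 in Foxa2-C3 and 857 and 818 in Foxa3-N2. These are the widest gaps in percentile, in each direction, among members above the median of both lists.

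Nearly all members held 1 peak of each library. Of the 2906 regions, 2902 held exactly 1 peak of each and 4 held 3 peaks. The 6363 other common regions held 6386 peaks of Foxa2-C3 and 6409 of Foxa3-N2, so nearly all of them also held 1 of each. The median width of members was 483.5 bp (central 50% 430 to 541 bp; range 314 to 1217 bp). It was 588 bp for common regions that further constructs bound, 388 bp for regions of Foxa2-C3 alone and 358 bp for regions of Foxa3-N2 alone. A region that merges several peaks is wider by construction. Wider than 1000 bp were 10 members (0.344%), against 1.39% of all 24999 regions and 4.12% of the other common regions. The widest members lay on chromosome 18 (25873063 to 25874279; 1217 bp), chromosome 4 (14949243 to 14950426; 1184 bp) and chromosome 10 (121429500 to 121430670; 1171 bp); all 3 ranked 4679 or lower in both lists.

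Compared peak by peak at like score, the widths of members were close to those of other peaks. Member peaks had a median width of 424 bp in Foxa2-C3 and 412 bp in Foxa3-N2, against 462 and 417 bp for all peaks of these lists. Within deciles of score, member peaks of Foxa2-C3 were narrower than peaks that further constructs bound in 10 of 10 deciles, by 0.5 to 47 bp of median width. In Foxa3-N2 they were narrower in 8 of 10 deciles, with differences from -49 to 7 bp. Against peaks of 1 list alone the direction varied: member peaks were wider in 5 of 10 deciles of Foxa2-C3 and 4 of 10 of Foxa3-N2. The narrowest width of a list, which 3.38% of Foxa2-C3 peaks (314 bp) and 3.69% of Foxa3-N2 peaks (275 bp) had exactly, was seen in 118 member peaks (4.06%) of Foxa2-C3 and 81 (2.78%) of Foxa3-N2.

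**Figure D4:**
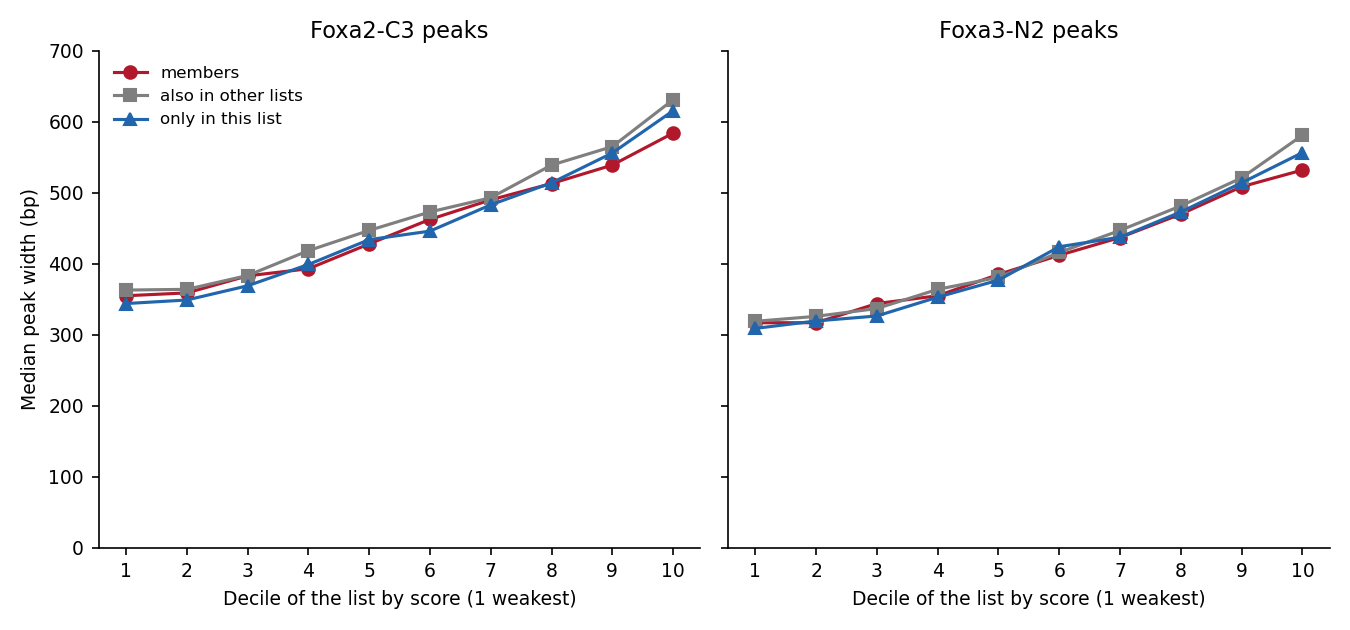
Median peak width (bp) by decile of score within Foxa2-C3 (left) and Foxa3-N2 (right), for member peaks, peaks at common regions that further constructs bound, and peaks of 1 list alone. Width climbs with score in each class, and the 3 lines run close together, with members lowest in the strongest decile of both lists.

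Both libraries placed the peak of a member at nearly the same position. The midpoints lay 36 bp apart in the median member, and in 1855 members (63.8%; 62.1 to 65.6%) they lay within 50 bp. In the 6363 other common regions the median was 28.5 bp and 72.1% lay within 50 bp. This distance shrank with strength in either set, and at like mean percentile it was smaller in members in 8 of 10 deciles, by up to 8 bp, and larger in 2, by up to 1.25 bp. One peak lay wholly inside the other in 1427 members (49.1%), against 61.4% of the other common regions.

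Few members depended on the 1 bp limit. The smallest overlaps between both peaks were 37 and 71 bp, in regions on chromosome 7 (130241489 to 130242293 and 120014981 to 120015714), and 76 bp on chromosome 10 (40068410 to 40068946). Just outside the limit, the nearest peaks of Foxa2-C3 and Foxa3-N2 that did not overlap and that no other list held were 17 bp apart on chromosome 11 (95697945 to 95698288 and 95698306 to 95698634), 30 bp apart on chromosome X and 61 bp apart on chromosome 13. In all, 43 such pairs lay within 1 kb. On the side of absence, the members nearest to a peak of another list lay 67 bp (chromosome 3, 123210431 to 123210832), 79 bp (chromosome 6) and 88 bp (chromosome 14) from it. The common regions that were just kept out had overlaps of 52, 87 and 146 bp with a Foxa3-C1 peak.

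Members hold no peak of the other constructs by the way they were chosen, and their distance to the next such peak varied widely. The nearest peak of any of the other 6 lists lay a median of 26135 bp away, and 124 members (4.27%; 3.59 to 5.06%) had one within 1 kb. Within 10 kb the share was 30.2% and within 100 kb 81.5%. By list, the median distance was 49742 bp to Foxa3-N1, 53433 bp to Foxa3-C1, 72399 bp to Foxa2-N3, 91412 bp to Foxa1-C3, 117139 bp to Foxa3-C2 and 620703 bp to Foxa1-N3, which is the order of list length. Counting regions of any kind, 52.1% of members (50.3 to 53.9%) had another region within 10 kb, against 48.8% of all 24999 regions and 55.9% of the other common regions. Within 1 kb it was 10.6% of members against 11.0% of all regions.

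Most members had no other member nearby, and the comparison depends on the set used. Within 10 kb of another member lay 349 of them (12.0%; 10.9 to 13.2%). The share was 7.16% (6.18 to 8.28%) for the 2319 regions private to another pair. For the 5833 regions of Foxa3-N2 alone it was 23.5%, and for the 6363 other common regions 25.6%. Those sets differ from the members in size. The 2922 regions of Foxa2-C3 alone, a set of nearly the same size, gave 14.0% (12.8 to 15.3%), and within 1 kb the numbers were 38 members against 73 of those regions. The median gap to the nearest region of the same set was 104141 bp for members and 103256 bp for regions of Foxa2-C3 alone. Joined in steps of up to 10 kb, 2557 members stayed single, 150 groups held 2, 15 held 3 and 1 held 4.

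**Figure D5:**
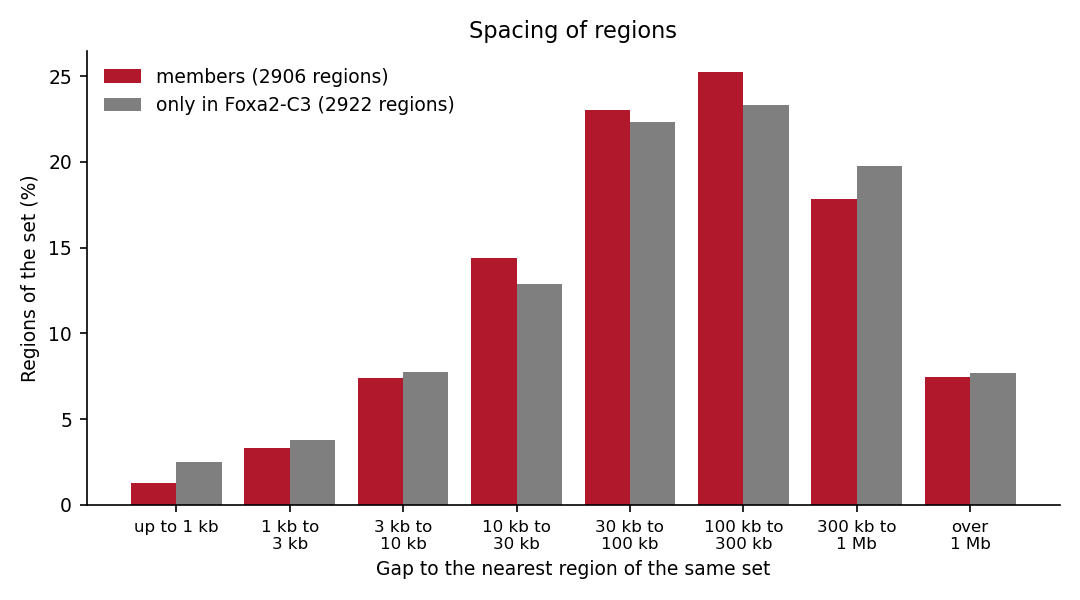
Distance from each region to the nearest region of its own set, as a share (%) of the set, for the 2906 members and the 2922 regions found in Foxa2-C3 alone. Both sets are spread alike, with 25.2% of members and 23.3% of the other regions between 100 and 300 kb from their nearest neighbour, and 1.31% against 2.50% within 1 kb.

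In these steps the group with the most members lay on chromosome X, where 4 members and 2 other regions fell within 14909 bp (54024872 to 54039780). Its members ranked 3185 to 12525 in Foxa2-C3 and 3639 to 12997 in Foxa3-N2, so the group was not built of strong peaks. In steps of up to 100 kb, the group with the most members held 8 over 330 kb of chromosome 12 (80432745 to 80762859). That span contained 25 regions in all: besides the 8 members, 10 were common regions that further constructs bound, of which 1 was in all 8 lists, and 5 were found in 1 list. The remaining 2 were held by either Foxa2-C3 or Foxa3-N2 and by a further list. The strongest of the 8 members by Foxa2-C3 (80742200 to 80742757) ranked 1973 there and 10271 in Foxa3-N2, whereas the strongest by Foxa3-N2 (80572835 to 80573367) ranked 6248 in Foxa2-C3 and 1850 in Foxa3-N2. The next group, on chromosome 6 (31017366 to 31264273), held 7 members among 17 regions, none of them in all 8 lists.

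The 4a3_DA1 list, the sole measurement that the choice of members did not use, seldom met them. Of the 2906 members, 12 (0.413%; 0.236 to 0.720%) overlapped one of its 698 peaks, against 217 of all 24999 regions (0.868%) and 55 of the 6363 other common regions (0.864%; 0.665 to 1.12%). The interval of the members lies below the share of all regions but overlaps that of the other common regions. Regions of Foxa2-C3 alone met it in 0 of 2922 cases, where a count of 0, read as at most 3 counts, allows a share of up to 0.103% (Wilson upper limit 0.131%). Regions of Foxa3-N2 alone met it in 0.274% (0.169 to 0.445%) and regions private to another pair in 2.03% (1.53 to 2.68%). The 12 members ranked 2588 to 13424 in Foxa2-C3, 711 to 11674 in Foxa3-N2 and 83 to 682 in 4a3_DA1. Of the 12, 4 lay on chromosome 19, among them the one with the best 4a3_DA1 rank (46577661 to 46578497). The strongest of the 12 in both Foxa lists lay on chromosome 6 (119338643 to 119339210). The sets differ in region width as given above, and its part in these shares was not tested. With 12 regions and 1 library, the share of the members rests on few counts. It was 1.14% among the 1922 regions private to the pair when peaks were limited to scores above the pooled median of 19.2. That limit also drops weaker peaks of the other lists, so those 1922 regions are not all members.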

How the data were processed

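Of 18 samples, the 9 ChIP libraries have deposited peak lists, which were used; the 9 inputs were not analysed here. The build is mm9, and the tools named are MACS2 2.1.0, BWA 0.6.2 and bedtools 2.16.2, per the submitters' processing notes. Settings of the caller and treatment of the input, not given in the sources used here, are unknown. Each deposited list gives peak positions and a score per peak made by the authors, of unstated kind, at least 5.11 in every list. Read depth is unknown.

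Starts were converted to count from 1. Peaks were ranked by score within each list. Peaks overlapping by 1 bp or more were merged over the 8 Foxa lists; bedtools 2.31.1 gave the same 24999 regions and 2906 members. On simulated lists with 200 planted regions, the members found equalled the truth in 20 of 20 sets. The simulated peaks of the same site always overlapped and those of different sites never did, so small overlaps and near misses were not checked. The members and lists were chosen with earlier results of these data known. No p-value was computed, since each construct had 1 library; shares carry 95% Wilson intervals. Regions named are the 10 with the best mean rank, the widest 3, the 3 with the largest gap between lists in each direction, the densest groups and those at the limits of the rule. The gap was planned as a score ratio and taken as a difference in percentile, because the scores are of unstated kind; the regions that met 4a3_DA1 were named after their values were seen. Alternatives changed the score limit, list length, merging distance, overlap and the lists compared. Values were computed in Python 3.11.15 with pandas 2.3.3, numpy 2.4.6 and scipy 1.17.1, and drawn with matplotlib 3.10.9.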

Additional observations from a re-analysis of the deposited data

How the results depend on the processing

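The number of regions found only in Foxa2-C3 and Foxa3-N2 followed the peaks admitted. It was 1922 with peaks above the pooled median score of 19.2, 722 with at most 7625 peaks of each list (chosen after seeing the data), 230 with 3594 and 64 with 956, against 2906. It stayed within 1.5 times of 2906 in the other 10 alternatives (2792 to 3498), which merged peaks within 1 kb, required 50% reciprocal overlap or midpoints within 200 bp, dropped each other list in turn or also asked for absence from 4a3_DA1. The share of common regions that were private, 31.4%, was 37.8%, 15.3%, 10.4% and 11.7% under those 4 limits on peaks in that order, and 35.6%, 33.7%, 35.0% and 37.7% when absence from Foxa1-C3, Foxa2-N3, Foxa3-C1 or Foxa3-N1 was not required. The share meeting 4a3_DA1, 0.413%, was 1.14%, 0.831%, 2.61% and 6.25% under the same limits on peaks. Within 1 kb of a 4a3_DA1 peak it was 0.860%, against 1.38% of all 24999 regions. It was 1.13% for the other common regions and 0.445% for regions of Foxa2-C3 alone. The share over all regions under those limits on peaks was not computed. The limits also change the set: of the 230 and 64 private regions, 130 and 62 are not members with all peaks. Values for sets so small rest on few counts. The share within 10 kb of another member, 12.0%, was 10.6%, 6.09%, 0% and 0% under the limits on peaks. Those limits left 1922, 722, 230 and 64 regions, and a share of this kind depends on the size of the set. It was 10.7% with peaks merged within 1 kb, and 13.7%, 13.4% and 14.0% without Foxa1-C3, Foxa2-N3 or Foxa3-N1. Within 100 kb the share was 49.5%, against 49.2% for the like-sized set of regions of Foxa2-C3 alone. For the larger sets it was 70.2% (other common regions) and 92.6% (all regions). The cause of the changes between settings was not tested. No paired analysis was possible because each construct had 1 library and no result came from a test. With 1 library per construct, a region absent from a list may be a site under that list's threshold.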

Other observations

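Members were found on all 20 chromosomes for which peaks were listed, in shares close to those of all regions. Chromosome 6 held the most, 218 members (7.50%; 95% Wilson interval 6.60 to 8.52%), against 6.69% of all 24999 regions, and chromosome X held 65 (2.24%; 1.76 to 2.84%), against 2.28%. The interval of the members lay above the share of all regions on 4 chromosomes, namely 7 (6.26% against 5.19%), 11 (6.99% against 5.88%), 17 (4.61% against 3.84%) and 18 (4.27% against 3.57%). It lay below on 3 chromosomes, namely 3 (5.26% against 6.39%), 12 (3.65% against 4.44%) and 13 (4.51% against 5.42%). Among regions common to Foxa2-C3 and Foxa3-N2, the share that were members ran from 26.6% on chromosome 3 (23.2 to 30.4%) to 35.9% on chromosome 17 (31.2 to 40.9%). These intervals treat regions as independent, were not adjusted for 20 comparisons and cover counting error only.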
